A study of Mus musculus with 18 samples.

Results

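Rab GTPases are small GTP-binding proteins that sit on the cytosolic face of intracellular membranes and give each compartment its identity. The members described here are the protein-coding genes whose symbol is Rab followed by a number and at most 1 letter, without Rab5a, which lies near Sh3gl1. Of the 51912 genes in the table, 21793 were protein-coding and 58 were such Rab genes. RNA had been sequenced from B cells of C57BL/6 mice that were either wild type (WT, Sh3gl1+/+ littermates by the study's methods) or homozygous for deletion of Sh3gl1 (Sh3gl1-/-), the gene of endophilin A2, which shapes membrane at sites of endocytosis. The 6 groups were transitional B cells (the newest immigrants from the bone marrow) that were untreated, follicular B cells (the mature recirculating cells) that were untreated, and follicular B cells after 14 h with CD40L, a T-cell signal, by the labels, each from WT and from Sh3gl1-/- mice. The sources differ on this time, which is overnight in the study's methods and longer than 14 h in its figure legends. Each group had 3 libraries, 18 in all, and mouse age was not given in the sources used here. No library was from cells cultured without CD40L, so the effects of culture and of CD40L cannot be told apart. A lower count in such bulk RNA can come from fewer cells of a type or from less RNA per cell, and these cannot be told apart either.

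A Rab protein cycles between a GDP-bound form, held in the cytosol by a GDP dissociation inhibitor (GDI), and a GTP-bound form on a membrane. Guanine nucleotide exchange factors (GEFs) switch it on, GTPase-activating proteins (GAPs) switch it off, and effectors that bind the GTP form tether, move or fuse the vesicle. In B cells this machinery is known to carry the antigen receptor from early endosomes to the compartments where antigen is loaded on MHC class II, to return receptors to the surface, and to move secretory cargo from the endoplasmic reticulum (ER) through the Golgi. The membrane anchor of a Rab is a prenyl lipid on cysteines at or near its C-terminus, so the end of the coding sequence is where the members carry the feature that all of them need. In GENCODE M21 (GRCm38), all 58 members had a complete coding sequence, 49 of them had 2 or more cysteine codons among the last 5 codons before the stop, and the remaining 9 had 1. The last 30 coding bases, stop codon included, are printed here for members to which the results below return, 5′ to 3′ on the coding strand, with the cysteine codons TGC and TGT among the last 5 codons in capitals. Each run lies in the coding part of 1 exon.
Rab8a, chr8:72180108-72180137, plus strand: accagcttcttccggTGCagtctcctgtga
Rab8b, chr9:66847719-66847748, minus strand: accagtttcttccgcTGTtctctgctttga
Rab30, chr7:92835910-92835939, plus strand: agctatttgactTGTTGTaatttcaactaa
Rab19, chr6:39389777-39389806, plus strand: cccaatgagagcacccgcTGTactTGTtga
Rab1b, chr19:5100378-5100407, minus strand: gtgaagcctgctagcggtggcTGCTGCtag
Rab7, chr6:88000435-88000464, minus strand: aaggcctccgcagaaagcTGCagtTGTtga
Rab11b, chr17:33747668-33747697, minus strand: aacaagctgcagTGCTGCcagagcctgtga
Rab21, chr10:115290772-115290801, minus strand: agcagcggagggTGCTGTtcctccggctaa
The paralogs Rab8a and Rab8b are shown as an example of a single cysteine codon, which both have at the same distance from the stop, and Rab30, Rab1b, Rab11b and Rab21 as examples of adjacent cysteine codons. Rab19 and Rab7 have the cysteine codons separated by another codon.

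A RefSeq entry for the 250 bases before a transcription start (GRCm38.p6) was found for 47 of the 58 members. The entries shown are those of Rab8b, which was higher after CD40L, and Rab14, which was lower, with the GC box GGGCGG and its reverse complement CCGCCC, searched on both strands, in capitals.
Rab8b, chr9:66919706-66919955, minus strand: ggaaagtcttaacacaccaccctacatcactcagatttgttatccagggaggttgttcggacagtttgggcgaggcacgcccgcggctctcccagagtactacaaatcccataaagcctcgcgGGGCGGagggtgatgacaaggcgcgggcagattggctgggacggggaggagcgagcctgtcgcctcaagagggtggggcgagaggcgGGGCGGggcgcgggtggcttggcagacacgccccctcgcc
Rab14, chr2:35201121-35201370, minus strand: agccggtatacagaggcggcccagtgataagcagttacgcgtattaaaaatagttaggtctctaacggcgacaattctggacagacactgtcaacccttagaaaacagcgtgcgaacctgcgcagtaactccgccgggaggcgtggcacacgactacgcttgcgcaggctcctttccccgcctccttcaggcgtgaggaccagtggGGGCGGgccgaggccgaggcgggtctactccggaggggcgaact
The Rab8b window holds 2 GC boxes and the Rab14 window holds 1. At least 1 GC box lay in the window of 35 of the 47 Rab genes with an entry (74.5%) and of 35.4% of the 27025 genes with one. The median GC content of the Rab entries was 60%, and that of all 32851 entries was 52.4%. Among the tested Rab genes with an entry, the box was present in 4 of 5 that were higher after CD40L in both genotypes and in 5 of 7 that were lower in both. It was present in 5 of 9 with an entry that were called in 1 genotype, and in 14 of 17 with an entry that were not called.

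Sh3gl1 itself was read at 377 to 929 counts in the 9 WT libraries and at 1 to 22 counts in the 9 Sh3gl1-/- libraries. Library totals were 12404688 to 18366078 counts, and 3 markers of transitional B cells summed to 505 to 1008 CPM in the transitional and 299 to 459 CPM in the follicular libraries (CPM is a gene's count scaled to its library's total). The sum of 3 markers of follicular B cells was 3996 to 6046 CPM and 6277 to 8231 CPM in these libraries. The Rab genes were covered unevenly at this depth. Of the 58 members, 37 were over 3 counts in all 18 libraries and 18 in some of them, while Rab3c, Rab9b and Rab17 were at 0 counts throughout, which at a limit of 3 counts allows up to 0.176 to 0.24 CPM per library. Reads of the members could be told from each other, since no 50-base stretch was shared between the transcripts of any 2 members. Rab4b shared 80.3% of its 50-base stretches with Gm21983, which held 0 to 14 counts beside 1667 to 3287 for Rab4b. Rab43 shared 77% with Gm45140, which held 22 to 168 counts beside 55 to 276 for Rab43, so Rab43 values are uncertain. Rab4a, an early endosomal recycling Rab, had 0 to 10 counts, overlapped the same-strand gene Gm20388 (104 to 250 counts) and was too low to be tested in any comparison. Several members also overlap a gene on the opposite strand, and the strand setting of the counting is not given in the sources used here. Among these, Rab24 (53 to 213 counts) overlaps Prelid1 (870 to 1931), Rab6a (344 to 700) overlaps Mrpl48 (804 to 2113), Rab2b (391 to 797) overlaps Tox4 (1346 to 2761), Rab37 (32 to 196) overlaps Cd300lf (127 to 434) and Rab3a (3 to 74) overlaps Mpv17l2 (12 to 56).

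The Rab transcripts of these B cells were dominated by a few members. Levels between genes were compared by the deposited TPM, which is scaled to transcript length. The highest mean was that of Rab8a, which moves cargo to the plasma membrane and to primary cilia, at 238 TPM ± 43.8 (SD, n = 18). Rab7, which directs late endosomes to lysosomes, followed at 214 TPM ± 28.9 (SD, n = 18). Rab4b of the fast recycling route stood at 167 TPM ± 31.1 (SD, n = 18), and Rab11b of the slow recycling endosome at 159 TPM ± 14.9 (SD, n = 18). These 4 members together took 45.7 to 55.9% of the Rab TPM of a library, whose sum over all members was 1236 to 1770 TPM. The order of these 4 was not the same in every group. In cultured Sh3gl1-/- cells Rab7 averaged 209 TPM and Rab8a 183 TPM, in cultured WT cells 201 and 202 TPM, and in the latter Rab11b averaged 145 TPM and Rab4b 131 TPM.

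Rab1b, which acts between ER and Golgi, had 97.3 TPM ± 21.1 (SD, n = 18), and Rab14, which links endosomes and the trans-Golgi, had 96.3 TPM ± 14 (SD, n = 18). Then came Rab18 at 54.7 TPM ± 7.18, Rab29 at 51.3 TPM ± 8.43, Rab5b at 49.9 TPM ± 7.44 and Rab1a at 38.8 TPM ± 8.82 (SD, n = 18 each). Among the neighbours in this order, Rab14 (70.1 to 113 TPM) and Rab18 (39.7 to 69.8 TPM) were separated in range over the 18 libraries, and the ranges of the other neighbours overlapped. The order of the 10 was the same in the deposited FPKM. By role, the members of recycling and surface delivery held the largest share of the Rab TPM, 35.1 to 40.1% in every library, and those of regulated secretion and lysosome-related organelles held 1.27 to 1.98%.

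**Figure D1:**
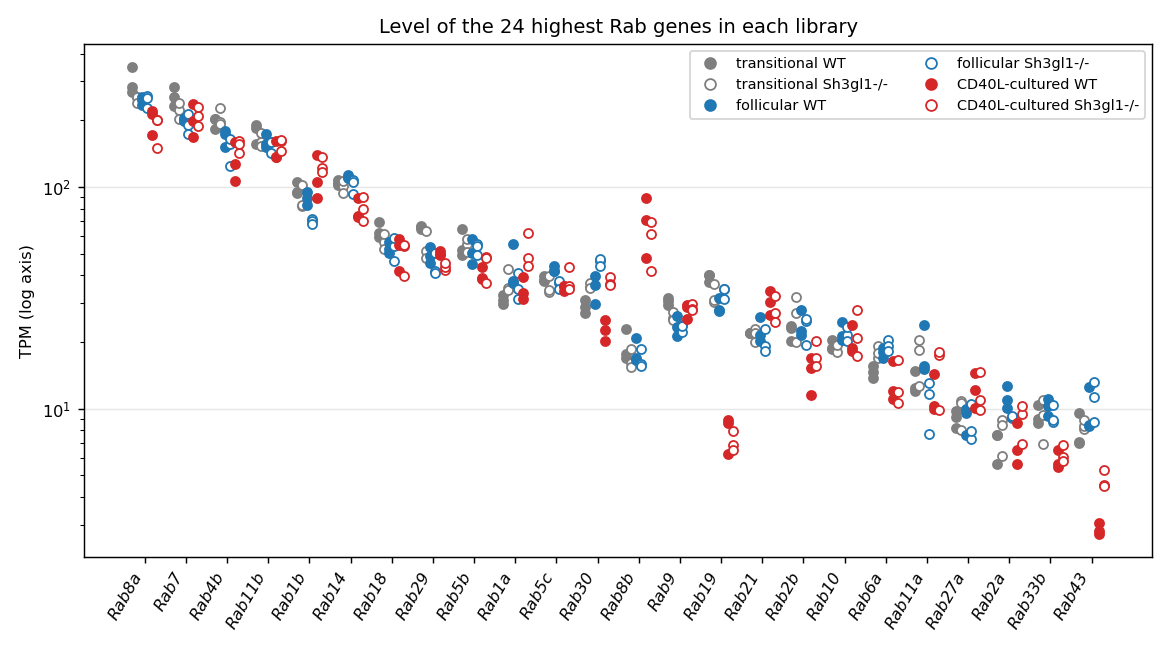
Deposited TPM (log axis) of the 24 Rab genes with the highest mean, with 1 point per library (18 libraries; filled, WT; open, Sh3gl1-/-). Rab8a, Rab7, Rab4b and Rab11b lie highest, and Rab14 is separated from the next member, Rab18.

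Culture with CD40L changed close to the same share of Rab genes as of all genes. The question here is how follicular cells differ after the T-cell signal, in each genotype. In WT cells, 20 of 43 Rab genes tested (46.5%) passed the test, 6 higher and 14 lower, where 49.3% of all 14460 genes tested passed it (23.6% higher and 25.7% lower). In Sh3gl1-/- cells, 19 of 43 (44.2%) passed, 7 higher and 12 lower, beside 42.4% of all genes (20.6% higher and 21.7% lower). Here and below, genes pass, or are called, where edgeR's quasi-likelihood test gives an adjusted p under 0.05, the Benjamini-Hochberg adjustment taking in all genes of the comparison. Log2 changes are given as CD40L-cultured against follicular cells. The median log2 change of the tested Rab genes was -0.21 in WT and -0.10 in Sh3gl1-/- cells, and that of all genes tested was -0.08 and -0.03. Both genotypes called 5 members higher, 83.3% of those of WT and 71.4% of those of Sh3gl1-/-, and 9 members lower, 64.3% and 75%. Without TMM scaling, the median log2 change of all genes in WT moved to -0.22 and that of the Rab genes to -0.35, and 5 Rab genes were called higher and 21 lower.

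Of the members of recycling and surface delivery, 2 of 8 tested passed in WT (25%, 1 higher and 1 lower). In Sh3gl1-/- cells 3 of 8 passed (37.5%, 1 higher and 2 lower). The shares of all genes were 49.3% and 42.4%. Among these members, the paralogs Rab8a and Rab8b differed. Rab8b, chr9:66843664-66919687, stood at 64.7, 79.1 and 66.5 CPM in the follicular WT libraries and at 220, 301 and 402 CPM after CD40L. The Sh3gl1-/- libraries went from 64.2, 72.7 and 65.7 CPM to 266, 176 and 281 CPM. Every cultured library lay above every follicular library, and the log2 change was 2.10 (SE 0.21, adjusted p = 2.2e-06) in WT and 1.82 (SE 0.21, adjusted p = 1e-05) in Sh3gl1-/- cells. Rab8a, the more abundant paralog, was at 442, 441 and 433 CPM in follicular WT cells and at 348, 411 and 437 CPM after CD40L. The Sh3gl1-/- libraries were at 458, 445 and 438 CPM before and at 384, 305 and 356 CPM after. The Sh3gl1-/- groups did not overlap and Rab8a fell there, with a log2 change of -0.38 (SE 0.10, adjusted p = 0.0085), while the WT groups overlapped and it was not called. As a share of the summed TPM of the pair, Rab8b took 5.65 to 7.5% in the 12 libraries of untreated cells, 21.8 to 28.9% in the cultured WT libraries and 21.8 to 25.8% in the cultured Sh3gl1-/- libraries. Rab14 fell in both genotypes, from 280, 267 and 271 to 258, 198 and 208 CPM in WT (log2 change -0.33, SE 0.12, adjusted p = 0.037) and from 251, 270 and 287 to 224, 234 and 179 CPM in Sh3gl1-/- cells (-0.36, SE 0.12, adjusted p = 0.03). Its groups did not overlap in either genotype. Rab11b, Rab11a and Rab35, 3 members of the slow and fast return to the surface, were not called in either genotype, with log2 changes between -0.24 and -0.04.

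**Figure D2:**
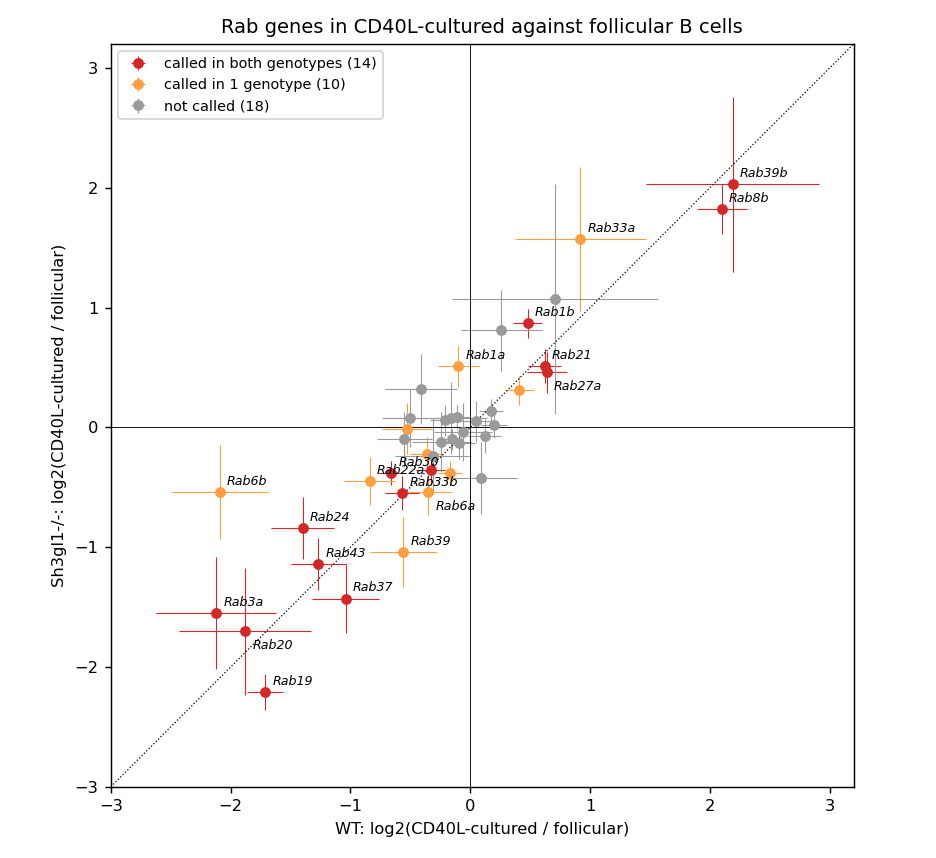
The log2 change of each tested Rab gene between follicular and CD40L-cultured cells in WT (horizontal axis) and Sh3gl1-/- cells (vertical axis), with error bars of 1 SE colours for the 14 members called in both genotypes, the 10 called in 1 of them and the 18 not called, and a dotted line of equal change; Rab7b is left out because its cultured WT libraries were all at 0. Rab8b and Rab39b lie at the upper right, and Rab19, Rab3a and Rab20 at the lower left.

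Of the early endosomal members, 2 of 6 tested passed in WT (1 higher and 1 lower) and 1 of 6 in Sh3gl1-/- cells (higher). The shares of all genes were 49.3% and 42.4%. Rab21, which guides integrin uptake into early endosomes, stood at 91.1, 75.9 and 72.5 CPM in follicular WT cells and at 140, 106 and 127 CPM after CD40L, with no overlap (log2 change 0.62, SE 0.14, adjusted p = 0.0023). It rose in Sh3gl1-/- cells from 84.8, 68.7 and 72.5 to 110, 121 and 95 CPM (0.51, SE 0.14, adjusted p = 0.0092). Rab22a, a close relative of Rab5, fell in WT from 30.5, 23.7 and 26.3 to 19.6, 15.4 and 11 CPM (log2 change -0.84, SE 0.21, adjusted p = 0.0039). Rab22a was not called in Sh3gl1-/- cells, at 25, 27.9 and 25.3 CPM before and 17.2, 24 and 16.7 CPM after, where the groups did not overlap either. Rab5b and Rab5c, which bring endocytic vesicles to fusion with early endosomes, and Rab4b of fast recycling were called in neither genotype, with log2 changes between -0.21 and 0.09. Without TMM scaling, Rab4b (adjusted p = 0.034), Rab5c (adjusted p = 0.037) and Rab11b (adjusted p = 0.019) were called lower in WT.

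Of the late endosomal, lysosomal and autophagy members, 4 of 7 tested passed in WT (1 higher and 3 lower) and 2 of 7 in Sh3gl1-/- cells (both lower). Beside these stood 49.3% and 42.4% of all genes. Rab7 was called in neither, at 332, 334 and 338 CPM in follicular WT cells and 333, 427 and 389 CPM after CD40L (log2 change 0.17, SE 0.10, adjusted p = 0.18). Without cultured WT library 1 it was called higher (adjusted p = 0.047). Rab9, which returns mannose 6-phosphate receptors from late endosomes to the Golgi, rose in WT from 24.1, 29.3 and 26.7 to 34, 36.7 and 37.9 CPM (log2 change 0.41, SE 0.12, adjusted p = 0.011). Rab24, an atypical Rab linked to autophagy, fell from 11.9, 11.4 and 10.1 to 5.38, 4.28 and 3.24 CPM in WT (-1.40, SE 0.26, adjusted p = 0.00054) and from 10.6, 9.18 and 15.2 to 6.56, 8.15 and 5.13 CPM in Sh3gl1-/- cells (-0.84, SE 0.26, adjusted p = 0.017). Neither pair of groups overlapped. Rab20, a phagosomal Rab at low counts, also fell in both genotypes, with log2 changes of -1.88 (SE 0.55, adjusted p = 0.012) and -1.70 (SE 0.53, adjusted p = 0.019). Rab7b was at 0.907, 0 and 0.827 CPM in follicular WT cells and at 0 in the 3 cultured WT libraries (adjusted p = 0.019). The follicular WT mean of 0.578 CPM was 2.93-fold the limit of 3 counts in a cultured WT library, 0.197 CPM on average. Follicular WT library 2 was itself at 0, so the WT groups of Rab7b overlapped. The call rested on 14 and 11 counts in follicular WT libraries 1 and 3, and that ratio is no lower bound on the change.

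Of the ER and Golgi members, 8 of 13 tested passed in WT (61.5%, 2 higher and 6 lower) and 9 of 13 in Sh3gl1-/- cells (69.2%, 4 higher and 5 lower). The shares of all genes were 49.3% and 42.4%. Rab1b rose in both genotypes, from 131, 135 and 123 to 153, 224 and 178 CPM in WT (log2 change 0.48, SE 0.12, adjusted p = 0.0051) and from 109, 103 and 108 to 199, 185 and 208 CPM in Sh3gl1-/- cells (0.87, SE 0.12, adjusted p = 8.2e-05). No follicular library reached a cultured one of its genotype. Rab1a, which shares the ER-to-Golgi step, was called in Sh3gl1-/- cells, at 56.7, 48.6 and 61.7 CPM before and 80.9, 92.2 and 67.2 CPM after (0.51, SE 0.17, adjusted p = 0.025). Rab6a, which serves retrograde transport to and within the Golgi, was lower there (-0.54, SE 0.19, adjusted p = 0.037), and its scarcer paralog Rab6b was lower in WT, from 4.4, 5.43 and 5.64 to 1.03, 1.94 and 0.734 CPM (-2.09, SE 0.40, adjusted p = 0.00062). Rab30, a Golgi Rab, fell in both genotypes, with log2 changes of -0.66 (SE 0.11, adjusted p = 0.00015) and -0.38 (SE 0.10, adjusted p = 0.01). Its call in Sh3gl1-/- cells was lost when every gene with at least 1 count was kept (adjusted p = 0.068). Rab33b, which acts at the Golgi and in autophagosome formation, fell from 30.6, 27.8 and 24.8 to 18.1, 20.3 and 18.5 CPM in WT and from 25.8, 29.8 and 27.7 to 19.1, 21.3 and 17.2 CPM in Sh3gl1-/- cells. Its groups did not overlap in either genotype, and the log2 changes were -0.57 (SE 0.14, adjusted p = 0.0033) and -0.55 (SE 0.14, adjusted p = 0.0054). Rab43 fell as well, by 1.27 (SE 0.23, adjusted p = 0.0004) and 1.14 (SE 0.22, adjusted p = 0.00098) on the log2 scale. At low counts, Rab39b rose in both genotypes (2.19, SE 0.72, adjusted p = 0.021 in WT and 2.03, SE 0.73, adjusted p = 0.037 in Sh3gl1-/-) and Rab33a in Sh3gl1-/- cells (1.57, SE 0.60, adjusted p = 0.049). Rab39 was lower in Sh3gl1-/- cells (-1.04, SE 0.29, adjusted p = 0.0094), and Rab2a and Rab2b were lower in WT (-0.53 and -0.36, adjusted p = 0.048 and 0.042), the last ones being named outside the rule since their values were known. With RLE size factors, and with DESeq2, 11 Rab genes were called lower in WT, and Rab2a and Rab2b were not among them.

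Of regulated secretion and lysosome-related organelles, 3 of 5 tested members passed in each genotype, namely Rab27a, Rab37 and Rab3a. Beside these stood 49.3% of all genes in WT and 42.4% in Sh3gl1-/- cells. Rab27a, which docks lytic granules and exosome-bearing endosomes at the plasma membrane, rose from 23.4, 18 and 22.6 to 28.8, 37.9 and 34.6 CPM in WT (log2 change 0.64, SE 0.17, adjusted p = 0.0079). The Sh3gl1-/- libraries were at 18.7, 25.7 and 20.9 CPM before and 29.4, 25.5 and 36.1 CPM after (0.46, SE 0.17, adjusted p = 0.046), and the groups overlapped by 1 library. Rab37, a Rab of secretory granules, fell from 11.1, 10.3 and 10.3 to 5.1, 6.28 and 4.34 CPM in WT and from 9.16, 12.5 and 12.4 to 3.74, 2.56 and 6.39 CPM in Sh3gl1-/- cells. The groups did not overlap, with log2 changes of -1.04 (SE 0.28, adjusted p = 0.0076) and -1.43 (SE 0.29, adjusted p = 0.0012). Rab3a, known from synaptic and hormone vesicles, fell from a low level by 2.12 (SE 0.50, adjusted p = 0.0031) and 1.55 (SE 0.47, adjusted p = 0.017) on the log2 scale.

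Rab19, a poorly characterised Rab of chr6:39381175-39390380, had the lowest adjusted p of all members in both genotypes. Its follicular WT libraries held 34.7, 33.5 and 39.7 CPM and its cultured WT libraries 9.1, 12.1 and 12.4 CPM. Its Sh3gl1-/- libraries went from 44.7, 43.5 and 42.3 CPM to 9.46, 10.7 and 8.45 CPM. The groups were far apart, with log2 changes of -1.71 (SE 0.15, adjusted p = 7.7e-07) and -2.21 (SE 0.15, adjusted p = 1.1e-07).

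**Figure D3:**
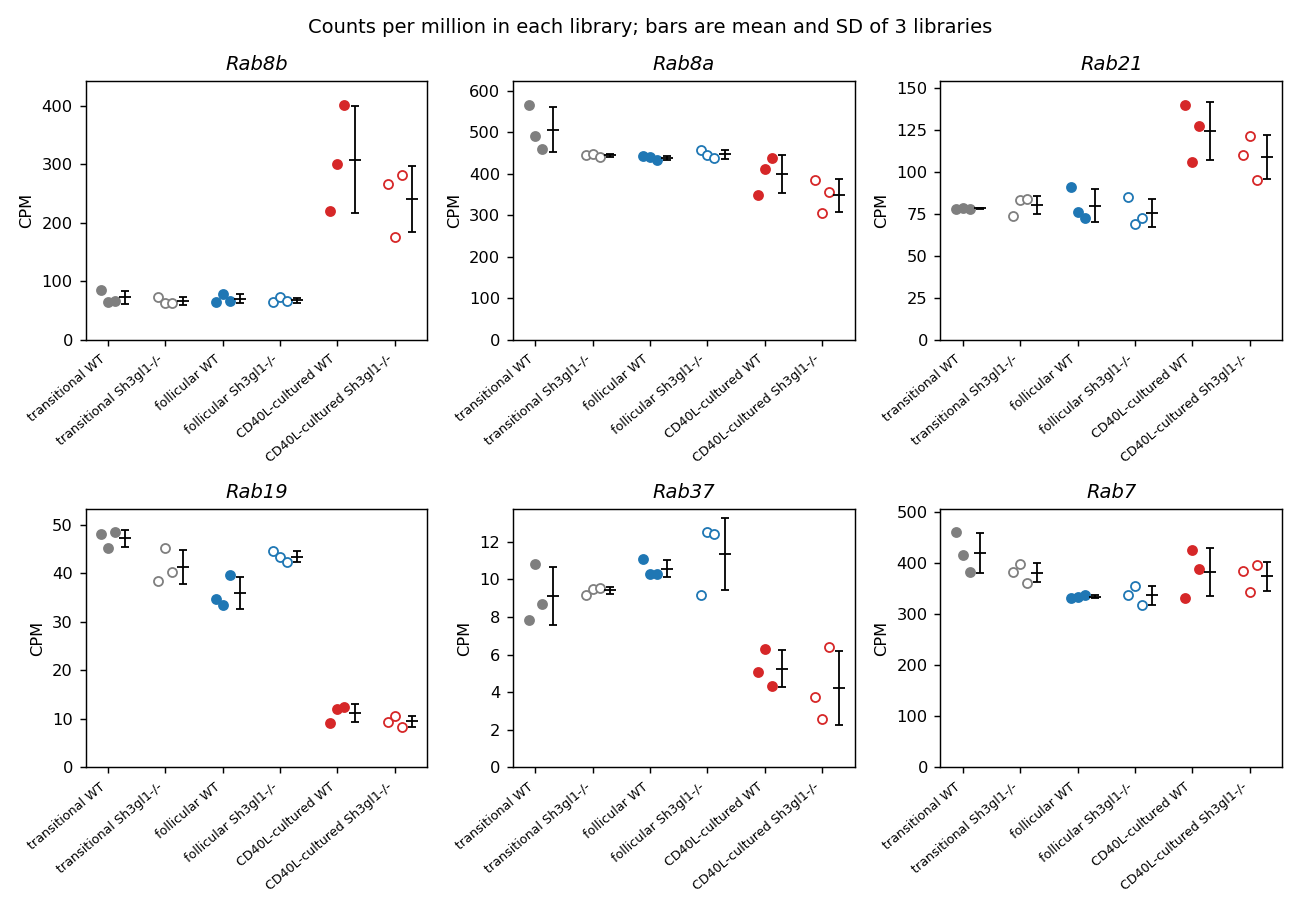
CPM per library of Rab8b, Rab8a, Rab21, Rab19, Rab37 and Rab7 in the 6 groups (filled, WT; open, Sh3gl1-/-), with bars for the mean and SD of 3 libraries and axes starting at 0. Rab8b lies at 64.2 to 79.1 CPM before and 176 to 402 CPM after CD40L, and Rab19 at 33.5 to 44.7 CPM before and 8.45 to 12.4 CPM after.

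Markers of other cells moved with the culture too. Erythroid markers summed to 792 to 5212 CPM in the follicular libraries and to 3.59 to 213 CPM in the cultured ones, neutrophil markers to 56.2 to 739 and 8.99 to 176 CPM, T-cell markers to 163 to 296 and 67 to 106 CPM, and NK-cell markers to 19.5 to 59.7 and 1.59 to 2.94 CPM. The sum of 4 dendritic-cell markers was higher after culture, at 10.7 to 16 CPM before and 25.1 to 37.8 CPM after, but the 4 did not move together. Itgax was at 0 in every cultured WT library. In each cultured group 3 of the 4 were over 3 counts in at least 1 library, against all 4 in each follicular group. The part of these other cells in the Rab changes was not tested. Leaving out each of the 12 libraries in turn, 13 of the 18 Rab calls named by rule in WT held in every fit, and 5 did not. Rab2a and Rab2b are not among these 18. Rab9 was lost without follicular WT library 1 (adjusted p = 0.053), Rab39b without follicular WT library 2 (0.075), Rab7b without follicular WT library 1 or cultured WT library 3 (0.052 to 0.057), and Rab20 without follicular WT library 1 or cultured WT library 2 (0.051 to 0.07). Rab14 was lost in 8 of the 12 fits (0.053 to 0.16), those without any follicular WT library, follicular Sh3gl1-/- library 2 or 3, cultured WT library 2 or 3, or cultured Sh3gl1-/- library 1.

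In Sh3gl1-/- cells, 8 of 19 Rab calls held in every such fit and 11 did not. Those lost without 1 particular library were Rab30 (cultured Sh3gl1-/- library 3, adjusted p = 0.065) and Rab39 (follicular Sh3gl1-/- library 3, 0.054). Rab3a was lost without follicular Sh3gl1-/- library 2 or cultured library 1 or 3 of that genotype (0.056 to 0.069), Rab20 without follicular library 3 or cultured library 2 or 3 (0.067 to 0.086) and Rab24 without follicular library 3 or cultured library 1 or 3 (0.054 to 0.11). Rab1a was lost without follicular library 1 or 2 or cultured library 1 or 2 of that genotype (0.055 to 0.084), and Rab39b without follicular library 3 or any cultured library of it (0.052 to 0.082). Rab27a was lost without follicular Sh3gl1-/- library 1 or 3, cultured Sh3gl1-/- library 1 or 3 or follicular WT library 3 (0.053 to 0.17), and Rab14 without follicular Sh3gl1-/- library 2 or 3, cultured Sh3gl1-/- library 1 or 3 or follicular WT library 1 or 2 (0.059 to 0.21). Rab6a was lost in 8 fits (0.052 to 0.2), those without any of the 6 follicular libraries or cultured Sh3gl1-/- library 1 or 3, and Rab33a in 11 (0.062 to 0.15), all but the one without follicular WT library 2. The tests after CD40L used no replicate block. With the replicate number as a block within genotype, 21 Rab genes were called in WT, 6 higher and 15 lower. These were the 20 called without the block and Rab12, a Rab of recycling endosomes and lysosomes, which was lower (log2 change -0.55, adjusted p = 0.048).

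The difference between the genotypes in the response to CD40L was itself tested, and none of the 43 Rab genes passed. The same held for all genes, 0 of 14460 (0%), of which 1278 had an unadjusted p under 0.05 and 25 were called by DESeq2. Of the Rab genes, 4 had an unadjusted p under 0.05. They were Rab6b, whose response differed by 1.55 on the log2 scale (SE 0.56, adjusted p = 0.48), Rab1a by 0.60 (SE 0.24, adjusted p = 0.51), Rab1b by 0.39 (SE 0.17, adjusted p = 0.56) and Rab19 by -0.50 (SE 0.21, adjusted p = 0.53), Sh3gl1-/- minus WT. The members called in 1 genotype were thus not shown to respond differently between the genotypes. Among the other members with values fixed by rule, Rab8a differed by -0.21 (SE 0.14) and Rab40c by -0.52 (SE 0.43), and the endosomal set Rab4b, Rab5b, Rab5c, Rab7, Rab11a, Rab11b and Rab35 by -0.04 to 0.27.

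The genes that switch and read the Rab proteins were listed as well, 145 in all. In WT cells 54 of 130 tested (41.5%) were called after CD40L, 15 higher and 39 lower, and in Sh3gl1-/- cells 47 (36.2%), 22 higher and 25 lower, beside the shares of 49.3% and 42.4% of all genes. The effectors of WT cells counted 2 higher and 15 lower of 49 tested, the GEFs 6 and 15 of 40, the GAPs 6 and 8 of 33, and the GDI, escort and prenylation genes 1 and 1 of 8. Of the same genes in Sh3gl1-/- cells, 6 effectors were higher and 8 lower, 9 GEFs higher and 11 lower, 6 GAPs higher and 6 lower, and 1 of the GDI, escort and prenylation genes was higher. The genes named from here on were chosen after their values were seen. Rin3, an exchange factor for the Rab5 family, fell from a mean of 82.7 CPM ± 13.7 to 12.9 CPM ± 2.45 (SD, n = 3) in WT, with log2 changes of -2.71 (SE 0.17, adjusted p = 3.4e-08) and, in Sh3gl1-/-, -2.62 (SE 0.17, adjusted p = 6.2e-08). Rab3ip, which encodes Rabin8, the exchange factor of Rab8, fell by 0.83 (SE 0.22, adjusted p = 0.0065) in WT and by 0.90 (SE 0.22, adjusted p = 0.0049) in Sh3gl1-/- cells on the log2 scale, opposite in sign to Rab8b. Among DENN-domain exchange factors, Dennd2d fell (-2.10 in WT and -2.05 in Sh3gl1-/-, SE 0.10 each) and Dennd4a rose (0.92 and 1.36, SE 0.10 each). Tbc1d10c, a TBC-domain GAP of lymphocytes, fell from a mean of 390 CPM ± 34.9 to 173 CPM ± 17.8 (SD, n = 3) in WT (-1.20, SE 0.12, adjusted p = 1.8e-06). Rabggtb, the catalytic subunit of the enzyme that adds the prenyl lipids to the cysteines shown above, rose by 0.63 (SE 0.13, adjusted p = 0.00097) in WT and 0.43 (SE 0.13, adjusted p = 0.015) in Sh3gl1-/- cells on the log2 scale, while Gdi2, a GDI, was not called in either, with log2 changes of 0.11 (SE 0.08) and 0.03 (SE 0.08).

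Between transitional and follicular cells, the share of Rab genes called in WT was close to that of all genes. This comparison follows the step from newly arrived to mature B cells. In WT, 10 of 42 Rab genes tested (23.8%) were called, 6 higher and 4 lower in follicular cells, beside 25.9% of all 14580 genes (11.7% higher and 14.2% lower). In Sh3gl1-/- cells 3 of 42 (7.14%) were called, 1 higher and 2 lower, beside 10.4% of all genes (3.71% higher and 6.72% lower). The median log2 change of the Rab genes was 0.02 in WT and -0.02 in Sh3gl1-/- cells, and that of all genes was 0.03 and 0.00. By role in WT, 5 of 12 tested ER and Golgi members were called (41.7%), all higher in follicular cells. Of 7 late endosomal members, 3 were called (42.9%), Rab7, Rab9 and Rab29, all lower. None was called of 6 early endosomal, 6 regulated secretion and 7 recycling and surface delivery members. Of 4 other or less characterised members, 2 were called (1 higher and 1 lower). Sh3gl1-/- cells had 2 of the 12 ER and Golgi members called (16.7%, 1 higher and 1 lower), 1 of the 6 early endosomal (lower) and none in the other roles.

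Rab30 rose from 36.4, 43.4 and 38 CPM in the transitional libraries to 54.2, 49.4 and 59.4 CPM (log2 change 0.48, SE 0.10, adjusted p = 0.0033). Rab2a, which acts in retrieval from the Golgi to the ER and in lysosome delivery, rose from 12.6, 9.45 and 12.7 to 21.7, 17 and 19 CPM (0.74, SE 0.18, adjusted p = 0.0082). Rab6a rose from 25.5, 30.3 and 27.5 to 38.6, 36 and 33.6 CPM (0.39, SE 0.11, adjusted p = 0.02). The groups of these members did not overlap. Rab6b (0.888, 1.27 and 1.81 to 4.4, 5.43 and 5.64 CPM) had a log2 change of 1.97 (SE 0.53, adjusted p = 0.015), and Rab23, an antagonist of Hedgehog signalling, rose from 1.02, 1.27 and 1.74 to 3.43, 3.27 and 7.9 CPM (1.86, SE 0.39, adjusted p = 0.0038). Both rested on low counts and their groups did not overlap. Rab1a had the weakest call (0.41, SE 0.14, adjusted p = 0.049).

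The 4 members that were lower in follicular WT cells had log2 changes between -0.39 and -0.32. Rab7 stood at 461, 416 and 383 CPM in transitional and at 332, 334 and 338 CPM in follicular WT cells (log2 change -0.32, SE 0.08, adjusted p = 0.0082). Rab19 stood at 48.1, 45.3 and 48.5 CPM and at 34.7, 33.5 and 39.7 CPM (-0.39, SE 0.10, adjusted p = 0.0096). Rab29, a relative of Rab32 that acts with LRRK2 at lysosomes and Golgi, went from 58.6, 58.3 and 59.4 to 48.8, 41.2 and 46.7 CPM (-0.36, SE 0.11, adjusted p = 0.022), and Rab9 from 33.4, 35 and 32.5 to 24.1, 29.3 and 26.7 CPM (-0.33, SE 0.10, adjusted p = 0.028). In each of the 4, all follicular libraries lay below all transitional ones.

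The members called in Sh3gl1-/- cells were Rab30, Rab4b and Rab1b. Rab30 rose from 53.9, 54.6 and 59.7 to 69.4, 73.3 and 75.2 CPM (log2 change 0.36, SE 0.10, adjusted p = 0.028). Rab4b fell from 185, 210 and 186 to 149, 153 and 124 CPM (-0.45, SE 0.10, adjusted p = 0.0069), and Rab1b from 122, 149 and 129 to 109, 103 and 108 CPM (-0.33, SE 0.09, adjusted p = 0.025). No follicular library overlapped the transitional ones for these 3 members. Rab30 was thus the member called in both genotypes. For the endosomal members that were not called, the log2 change ran from -0.18 (Rab4b) to 0.36 (Rab11a) in WT and from -0.24 (Rab11a) to 0.13 (Rab35) in Sh3gl1-/- cells. The test of the difference itself called none of the 42 Rab genes and 10 of 14580 genes (0.0686%). The lowest p-values of the difference belonged to Rab19 (log2 0.45, SE 0.14, adjusted p = 0.19), Rab23 (-1.71, SE 0.54, adjusted p = 0.19) and Rab1a (-0.49, SE 0.20, adjusted p = 0.3), Sh3gl1-/- minus WT. In the same test Rab22a had -0.38 (SE 0.17), Rab8a 0.20 (SE 0.11) and Rab43 0.48 (SE 0.28).

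**Figure D4:**
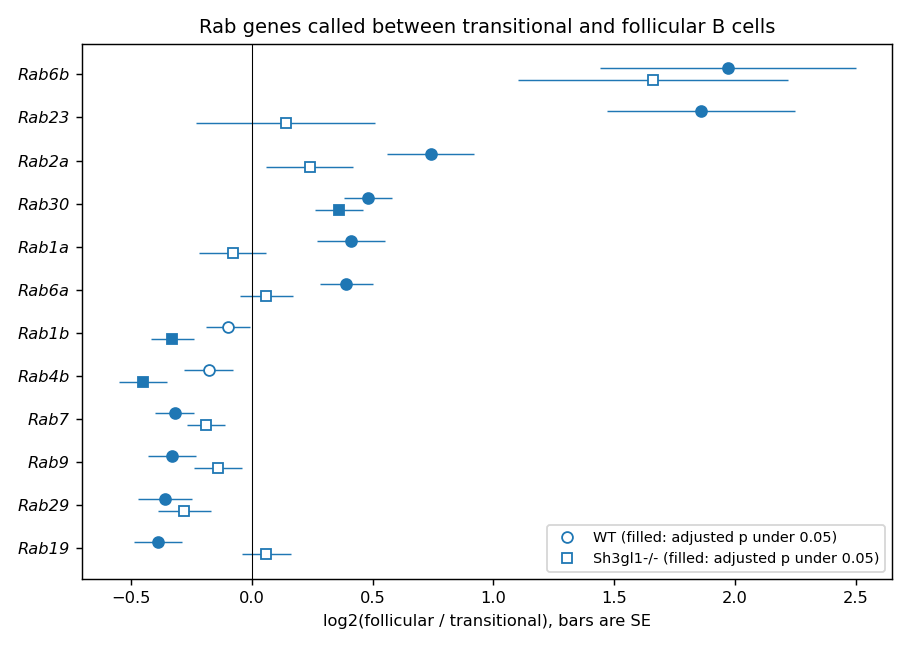
The log2 change between transitional and follicular cells of the Rab genes called in either genotype, with bars of 1 SE on each side (circles, WT; squares, Sh3gl1-/-; filled symbols are called). Rab6b and Rab23 have the largest changes in WT, 1.97 and 1.86, and Rab30 lies above 0 in both genotypes.

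The replicate numbers were taken to pair the libraries of untreated cells within a genotype, a pairing that the sources used here do not name. The tests above used no such block. With that number as a block, 2 more Rab genes were called in each genotype. They were Rab8a (log2 change -0.20, adjusted p = 0.048) and Rab32, a Rab of lysosome-related organelles (-0.57, adjusted p = 0.044), in WT, and Rab6b (1.87, adjusted p = 0.047) and Rab32 (-0.78, adjusted p = 0.018) in Sh3gl1-/- cells, which brought the Sh3gl1-/- count to 5. The block raised the count of the difference over all genes from 10 to 99, and none of them was a Rab gene. With 1 of the 12 libraries left out in turn, 5 of 10 Rab calls in WT and 1 of 3 in Sh3gl1-/- cells (Rab4b) held throughout. Rab6b was lost without transitional WT library 1 (adjusted p = 0.056), Rab6a without transitional WT library 1 or 3 or follicular WT library 1 (0.052 to 0.081), Rab29 without transitional WT library 2 or 3 or follicular WT library 2 (0.054 to 0.091), and Rab9 without transitional WT library 1 or 2 or follicular WT library 1 or 3 (0.053 to 0.12). Rab1a was lost in 9 of 12 fits (0.053 to 0.26), all but those without follicular WT library 2 or 3 or follicular Sh3gl1-/- library 2. Of the Sh3gl1-/- calls, Rab1b was lost without transitional library 2 or any follicular library of that genotype (0.066 to 0.13), and Rab30 without transitional library 1 or 2 or any follicular library of it (0.052 to 0.11). Monocyte and macrophage markers summed to 341 to 610 CPM in transitional and 108 to 252 CPM in follicular libraries, and plasma-cell markers to 428 to 4562 and 64 to 177 CPM. Their part was not tested.

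Between WT and Sh3gl1-/- cells, edgeR with the low-count filter used throughout called 1 Rab gene, Rab30 in transitional cells, and the calls under other settings are given with its values. In transitional cells, 1 of 41 Rab genes tested was called (2.44%), beside 3.73% of all genes. In follicular cells none of 40 was called, beside 0.845% of all genes, and in cultured cells none of 42, beside 0.0227% of all genes. At an unadjusted p under 0.05 there were 8, 5 and 5 Rab genes, beside 2994 of 13775, 1480 of 13610 and 930 of 13190 genes in all, and DESeq2 called 2, 1 and 1 Rab genes, beside 1340, 352 and 78 genes. The median log2 difference of the Rab genes, Sh3gl1-/- minus WT, was 0.05, 0.00 and 0.05, and that of all genes 0.02, 0.00 and 0.01.

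Rab30, chr7:92741603-92844535, is the Golgi Rab whose coding end was printed above with adjacent cysteine codons. In transitional cells it stood at 36.4, 43.4 and 38 CPM in WT and at 53.9, 54.6 and 59.7 CPM in Sh3gl1-/- libraries (log2 difference 0.52, SE 0.10, adjusted p = 0.033). In follicular cells it stood at 54.2, 49.4 and 59.4 CPM and at 69.4, 73.3 and 75.2 CPM (0.42, SE 0.10, adjusted p = 0.1). In cultured cells it stood at 32.6, 35.3 and 37.2 CPM and at 58.6, 58 and 53.2 CPM (0.72, SE 0.13, adjusted p = 0.17). In each of the 3 states all Sh3gl1-/- libraries lay above all WT libraries. Of the 38 Rab genes tested in all 3 states Rab30 alone did so, and 0.581% of all genes tested in the 3 states did so. The groups without overlap, in either direction, numbered 12 of 41 Rab genes in transitional cells (29.3%, beside 28.0% of all genes), 6 of 40 in follicular cells (15%, beside 16.0%) and 5 of 42 in cultured cells (11.9%, beside 13.8%), so that the shares were near those of all genes.

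The call of Rab30 in transitional cells was lost when any 1 of the 6 libraries (transitional WT 1, 2 or 3 or transitional Sh3gl1-/- 1, 2 or 3) was left out, with log2 differences of 0.47 to 0.59 and adjusted p from 0.055 to 0.14. DESeq2 called Rab30 in all 3 states (adjusted p = 0.0016 in transitional, 0.014 in follicular and 0.0027 in cultured cells), as did edgeR when every gene with at least 1 count was kept (0.0038, 0.023 and 0.012). Its response to CD40L and its step from transitional to follicular cells were not called as different between the genotypes.

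**Figure D5:**
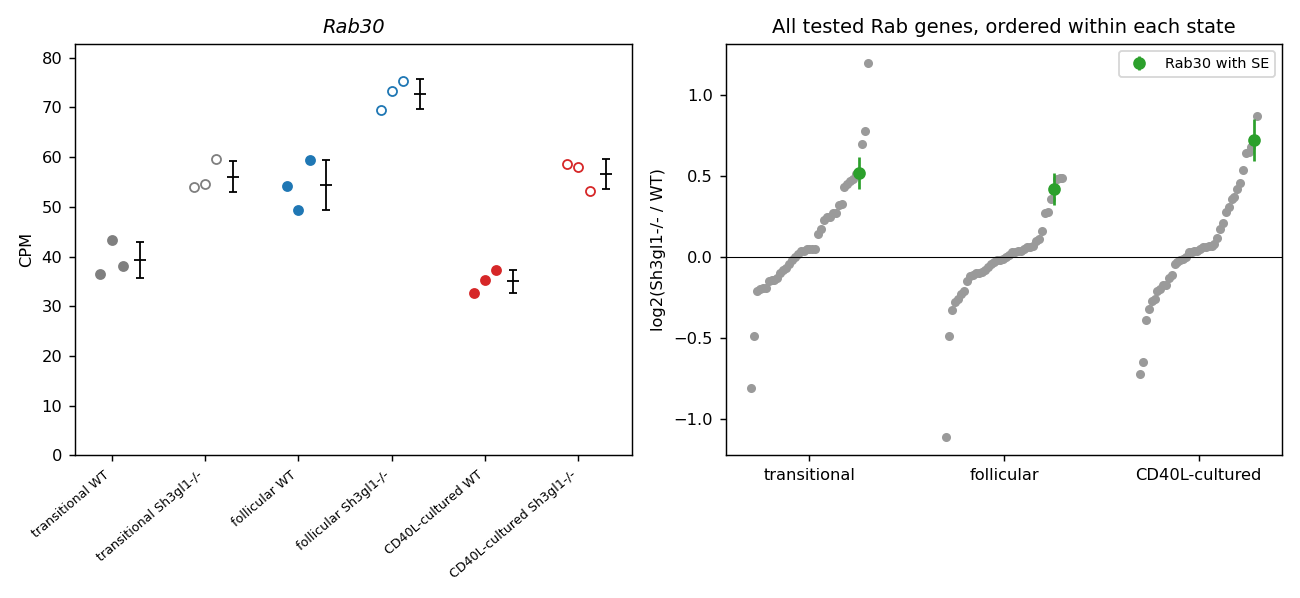
Left, Rab30 in CPM in each of the 18 libraries by cell state (filled, WT; open, Sh3gl1-/-), with bars for the mean and SD of 3 libraries; right, the log2 difference Sh3gl1-/- against WT of every tested Rab gene, ordered within each state, with Rab30 in green and its SE. The Sh3gl1-/- libraries of Rab30 lie above the WT libraries in every state, by 0.42 to 0.72 on the log2 scale, and in each state at least 1 other Rab gene has a larger difference than Rab30.

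Other members with the lowest p-values were not called. In transitional cells Rab6a differed by 0.47 (SE 0.12, adjusted p = 0.058), and it was called by DESeq2 (adjusted p = 0.017) and with every gene of at least 1 count kept (0.025). Rab23 differed there by 1.20 (SE 0.37, adjusted p = 0.1), Rab39 by -0.49 (SE 0.20), Rab8a by -0.19 (SE 0.09) and Rab29 by -0.20 (SE 0.10). In follicular cells Rab6b differed by -1.11 (SE 0.31, adjusted p = 0.18), Rab1b by -0.28 (SE 0.08, adjusted p = 0.2), Rab19 by 0.27 (SE 0.11) and Rab43 by 0.49 (SE 0.19). In cultured cells Rab32 differed by 0.87 (SE 0.28, adjusted p = 0.6), Rab1a by 0.42 (SE 0.15), Rab39 by -0.72 (SE 0.26), Rab29 by -0.26 (SE 0.13) and Rab8b by -0.32 (SE 0.23). With edgeR and the low-count filter used throughout, these values passed no threshold after adjustment. No member other than Rab30 kept its groups apart in all 3 states.

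No tested endosomal member with values fixed by rule was called between the genotypes. In transitional cells Rab4b, Rab5b, Rab5c, Rab7, Rab11b and Rab35 had log2 differences of -0.14 to 0.14, and Rab11a had 0.51 (SE 0.16, adjusted p = 0.11). Rab11a stood there at 10.6, 11.2 and 12.9 CPM in WT and at 15.7, 15.2 and 18.4 CPM in Sh3gl1-/- libraries. The Sh3gl1-/- libraries of Rab4b also lay above all WT libraries, and 28.0% of all genes had such groups without overlap in transitional cells. In follicular cells the log2 differences of the 7 were between -0.15 (Rab5c) and 0.06 (Rab5b), and in cultured cells between 0.00 (Rab7) and 0.17 (Rab4b). The follicular groups of Rab5c did not overlap, at 63.8, 65.8 and 64.4 CPM in WT and 59, 57.7 and 57.7 CPM in Sh3gl1-/- libraries, as in 16.0% of all genes. Of the regulators and effectors, 5 of 125 were called by edgeR in transitional cells (2 higher and 3 lower), 1 of 126 in follicular and 0 of 123 in cultured cells, beside 3.73%, 0.845% and 0.0227% of all genes. At an unadjusted p under 0.05 they numbered 34, 20 and 11.

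Markers of other cells moved with the genotype. Other B-cell states moved too. Summed marginal zone markers were lower in Sh3gl1-/- libraries in all 3 states, at 328 to 352 CPM in WT and 195 to 238 CPM in Sh3gl1-/- transitional cells, 178 to 218 and 146 to 155 CPM in follicular cells, and 110 to 112 and 72.8 to 98.8 CPM in cultured cells. The transitional B markers were lower as well, at 872 to 1008 and 505 to 801 CPM in transitional cells, 374 to 459 and 299 to 312 CPM in follicular cells, and 52.7 to 85.7 and 33.2 to 48 CPM in cultured cells. General B-cell markers were lower in follicular (11935 to 12499 and 10698 to 11439 CPM) and cultured cells (9199 to 9552 and 8303 to 8864 CPM) and overlapped in transitional cells. Follicular B markers overlapped in each state, at 3996 to 5271 and 5269 to 6046 CPM in transitional and 6277 to 7529 and 7483 to 8231 CPM in follicular cells. In transitional cells the erythroid markers summed to 1276 to 2190 CPM in WT and 2458 to 5289 CPM in Sh3gl1-/- libraries. There the plasma-cell markers summed to 428 to 669 CPM in WT and 1085 to 4562 CPM in Sh3gl1-/- libraries, and the neutrophil markers to 45.4 to 88.6 and 104 to 517 CPM. In follicular cells the neutrophil markers summed to 56.2 to 160 and 161 to 739 CPM and the T-cell markers to 163 to 198 and 248 to 296 CPM. In cultured cells the neutrophil markers summed to 8.99 to 37.4 and 47.5 to 176 CPM, with Ly6g at 0 in every cultured and follicular WT library, while the plasma-cell markers overlapped, at 28.8 to 84.8 and 45.6 to 70.4 CPM. The other 5 of the 6 neutrophil markers, all 7 T-cell markers and all 4 plasma-cell markers were over 3 counts in at least 1 library of every group. Rab30 itself was higher in follicular than in transitional cells of both genotypes. The part of these cells and states in the Rab30 difference was not tested.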

How the data were processed

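The deposited expected counts per gene, and the TPM and FPKM beside them, were made by the authors with RSEM. The submitters' processing notes name STAR 2.5.2a, RSEM 1.3.0, cutadapt 1.9.1 and GRCm38, while the methods name TopHat and Cufflinks. The labels name a stranded KAPA kit, the methods SMART-Seq and Nextera. The strand setting of counting is not given in the sources used here. The deposited expected counts are estimates, 10.3 to 11.6% of them not whole, and were rounded. The deposited TPM are the authors' length-scaled shares of a library, and the deposited FPKM the authors' values per length and depth, and both were read only for levels.

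All 18 libraries were grouped by their labels, and replicate pairs differed beyond sampling noise. Tests used edgeR 4.0.16 in R 4.3.3 (TMM, filterByExpr by group, glmQLFit and glmQLFTest), with Benjamini-Hochberg adjustment over all genes tested. SE is the log2 change over the square root of F. Genotype was fitted in 6 libraries per state, the other comparisons in 12, without a replicate block. The p-values rate a difference between groups against the spread between these libraries, which each fit estimates over all its groups. CPM uses TMM-scaled totals, and limits at 3 counts cover counting error only. The script was tested on simulated data.

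The members and lists were chosen with earlier results of these data known. Named were 8 endosomal members in every comparison, up to 12 called members per direction by adjusted p, where 3 or fewer were called the 3 lowest p per direction, and the 10 highest levels. The count of groups without overlap was added after seeing the data. Symbols and positions came from GENCODE M21, promoters from RefSeq. Deviations of same-numbered libraries correlated at 0.101 to 0.263 between transitional and follicular cells within a genotype and at 0.136 to 0.223 between follicular and cultured WT cells, so numbers were taken to pair these. Alternatives were DESeq2 1.42.0, RLE size factors, no TMM, 2 other filters, replicate blocks and leaving out each library.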

Additional observations from a re-analysis of the deposited data

How the results depend on the processing

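Of 51 called Rab values named by rule, 8 lost the call under an alternative other than leaving out a library and 24 under at least 1 left-out library, and none changed sign. The calls of Rab2a and Rab2b after CD40L in WT were outside this count. Of 89 values not called, 6 and 1 crossed the threshold, and 9 and 31 changed sign. With DESeq2, 2 Rab genes (1340 of all genes) differed by genotype in transitional, 1 (352) in follicular and 1 (78) in cultured cells, and with every gene of at least 1 count 2 (1415), 1 (602) and 1 (216). These settings gave 25 and 208 genes for the difference in CD40L response, 6 and 7 Rab genes between follicular and transitional Sh3gl1-/- cells, and 363 and 453 genes for the difference of that step. Without TMM the last count was 5, higher calls were 38.4% in place of 47.9% of all calls after CD40L in WT, and 47% in place of 57.4% between genotypes in follicular cells.

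Across genotypes the same replicate number correlated at -0.085 to 0.106, and between follicular and cultured Sh3gl1-/- cells at 0.035 to 0.118, so no pairing was taken there. All 3 follicular Sh3gl1-/- libraries still correlated best with the cultured library of their own number, so the line between paired and unpaired groups is a choice. A replicate block across genotypes gave 0 Rab genes (Rab30 at adjusted p = 0.075) and 90 genes in transitional, 212 in follicular and 21 in cultured cells, and 20 for the difference of the follicular step. The replicate block within genotype gave 99 for it and 5 Rab genes between follicular and transitional Sh3gl1-/- cells. After CD40L in Sh3gl1-/- cells it called Rab23 (0.049) and not Rab27a (0.083) or Rab33a (0.11).

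With 1 library left out, the fits gave 0 Rab genes and 28 to 479 genes by genotype in transitional, 32 to 112 genes in follicular and 1 to 9 in cultured cells. They gave 16 to 23 Rab genes (5981 to 7297 genes) after CD40L in WT, 11 to 19 (5080 to 6548) in Sh3gl1-/- cells and 0 to 1 gene for the difference. Between follicular and transitional cells they gave 6 to 11 Rab genes (2444 to 3774 genes) in WT, 1 to 4 (985 to 1650) in Sh3gl1-/- cells and 0 to 23 genes for the difference. Rab9 after CD40L in WT was also lost without TMM (0.07) and with every gene of at least 1 count (0.058), and Rab14 with DESeq2 (0.052), RLE size factors (0.066) and a filter of 1 CPM in 3 libraries (0.053). In Sh3gl1-/- cells after CD40L, Rab33a was lost with DESeq2 (0.071), without TMM (0.057) and with every gene of at least 1 count (0.19). Rab30 was lost there with that last filter (0.068) and Rab27a without TMM (0.065). Between follicular and transitional WT cells, Rab9 was lost with that filter (0.14) and Rab1a with RLE size factors (0.056). The cause was not tested. Of the members lost with a left-out library, Rab39b stood at no more than 2.94 CPM in the libraries compared. Rab33a stood at no more than 1 CPM in the follicular and cultured Sh3gl1-/- libraries.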
